A study of Mus musculus with 12 samples.

Results

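Transcript levels under interferon gamma (IFNγ) were compared between 4T1 cells that carried a guide RNA against Cop1 and 4T1 cells that carried a guide against Rosa26, a mouse locus often targeted as a neutral control. The comparison uses 6 of the 12 libraries of the study, all those that received IFNγ at 20 ng/ml for 24 hours. They are 2 libraries of cells with Cop1 sgRNA1, 2 with Cop1 sgRNA2 and 2 with the Rosa26 guide. The other 6 libraries are the same 3 populations under vehicle, which enter here only where the effect of Cop1 loss is compared between treatments. 4T1 cells come from a mammary tumour of a BALB/c mouse and serve as a model of triple-negative disease, and apart from the guides no genotype difference between the populations is given. Whether the guide populations were pools or single clones, where the guides cut within Cop1, and whether replicates were separate cultures are not given in the sources read here. The p-values therefore measure the spread between these libraries, which may be technical, and the single Rosa26 population stands for all control cells. A difference between Cop1-guide and Rosa26 cells below cannot be told apart from a property of that population. The effect called Cop1 loss here is the mean of the sgRNA1 and sgRNA2 group means minus the Rosa26 mean, as a log2 change with its standard error, written as change ± error throughout.

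COP1 is an E3 ubiquitin ligase that works with DET1 and the CUL4-DDB1 scaffold and marks transcription factors such as c-Jun, ETS and C/EBP proteins for degradation, with Tribbles pseudokinases as adaptors for C/EBP. Its direct action is on protein, so transcript levels show what follows in the cells, not the substrates' stability. IFNγ signals through its receptor and the kinases JAK1 and JAK2 to transcription factors that induce IRF1, the guanylate-binding proteins and immunity-related GTPases, the antigen presentation genes under NLRC5 and CIITA, and the chemokines that draw CXCR3-bearing lymphocytes. The classical antiviral genes of the type I interferon response depend more on interferon-stimulated response elements, bound by a complex that holds IRF9.

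Totals of gene counts lay between 19378070 and 25911775 in the 6 IFNγ libraries. Mitochondrially encoded genes took 0.397% to 0.426% of the counts in each of them. The 10 most abundant genes took 4.18% and 4.20% in the Rosa26 libraries and 4.80% to 4.83% in the Cop1-guide libraries. Epithelial markers of the line were present, with Krt8 at 729.6 and 729 CPM (counts scaled to library size) in the Rosa26 libraries, 904 and 894 with sgRNA1 and 863 and 904 with sgRNA2, and Epcam at 204 and 205 CPM in Rosa26, 259 and 265 with sgRNA1 and 277 and 269.9 with sgRNA2. Of 20 leukocyte markers, 10 had no count in any IFNγ library, among them Cd3e, Itgam and Adgre1, and 16 had at most 10 counts in every one. Of 16 fibroblast and endothelial markers, 12 had at most 10 counts in every IFNγ library. In such bulk libraries fewer cells of a kind and less RNA per cell cannot be told apart.

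The Cop1 transcript itself was lower with both guides, and the guides differed in how far. Cop1 (chromosome 1, 159232320 to 159347640 of GRCm38, protein-coding) stood at 80.4 and 83.3 CPM in the Rosa26 libraries, 60.7 and 60.2 with sgRNA1 and 32.3 and 33.6 with sgRNA2. The 4 Cop1-guide libraries lay below both Rosa26 libraries, and the sgRNA2 libraries lay below the sgRNA1 libraries. The log2 change was -0.88 ± 0.05 (adjusted p = 2.34e-18). Every adjusted p is from the quasi-likelihood test of edgeR, adjusted by Benjamini-Hochberg over the 11904 genes tested, unless another tool or fit is named. Where libraries were summed, left out or regrouped, the adjustment was over the genes which that fit kept. The difference of sgRNA2 minus sgRNA1 was -0.88 ± 0.063 on the log2 scale (adjusted p = 1.28e-13). The call ended where the 2 libraries of each population were summed, so that the spread came from the guides alone (adjusted p = 0.466), and where the 4 Cop1-guide libraries were taken as 1 group (adjusted p = 0.108). A guide that shifts the reading frame need not lower the transcript, so these values do not measure the remaining protein.

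Promoter sequences of a few interferon, stress and acute-phase genes are shown first, and each holds the element marked in it. Many other members of their groups do not. The element marked was held by 10 of 24 antiviral, 4 of 24 integrated stress response and 5 of 10 acute-phase and complement promoters. It was held by 10 of 10 promoters of immunity GTPase genes. Whether an element bears on the changes was not tested. The 250 bases before the start are from RefSeq (GRCm38.p6) and are written 5′ to 3′ on the gene's strand in lower case, with capitals for each match on either strand to 1 element. Ifit1 (chr19:34640639-34640888, plus strand) and Rsad2 (chr12:26456453-26456702, minus strand) are antiviral genes that fell, and Irgm1 (chr11:48871421-48871670, minus strand) is an immunity-related GTPase gene that rose. All 3 hold the core of the interferon-stimulated response element, searched as GAAA, any 2 bases, then GAAA.
Ifit1: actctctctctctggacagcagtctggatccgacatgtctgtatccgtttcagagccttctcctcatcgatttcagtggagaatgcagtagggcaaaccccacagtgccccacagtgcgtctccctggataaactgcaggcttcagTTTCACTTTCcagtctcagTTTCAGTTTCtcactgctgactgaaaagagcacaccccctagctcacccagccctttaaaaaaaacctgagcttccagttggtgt
Rsad2: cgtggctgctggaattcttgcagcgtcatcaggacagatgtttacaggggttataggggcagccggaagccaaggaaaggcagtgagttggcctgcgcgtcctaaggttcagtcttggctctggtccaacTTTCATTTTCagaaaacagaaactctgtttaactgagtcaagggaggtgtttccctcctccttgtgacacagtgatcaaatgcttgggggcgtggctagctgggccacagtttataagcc
Irgm1: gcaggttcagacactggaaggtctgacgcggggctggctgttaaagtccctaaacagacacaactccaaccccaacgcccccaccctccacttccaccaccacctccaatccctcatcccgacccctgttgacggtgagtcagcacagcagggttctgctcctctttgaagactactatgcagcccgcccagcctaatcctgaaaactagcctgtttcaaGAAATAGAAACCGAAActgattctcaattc
The matches begin 104 and 85 bases before the start of Ifit1, 120 before Rsad2 and 30 and 24 before Irgm1, where they overlap. Chac1 (chr2:119350992-119351241, plus strand) and Nupr1 (chr7:126625471-126625720, minus strand) belong to the integrated stress response, and the element shown is TGATGNAA, where N is any base, the core of the composite site of ATF4 and C/EBP factors.
Chac1: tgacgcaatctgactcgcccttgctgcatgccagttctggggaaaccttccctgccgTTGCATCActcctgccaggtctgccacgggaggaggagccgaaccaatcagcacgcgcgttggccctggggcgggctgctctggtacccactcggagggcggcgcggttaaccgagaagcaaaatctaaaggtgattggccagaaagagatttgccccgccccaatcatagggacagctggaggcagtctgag
Nupr1: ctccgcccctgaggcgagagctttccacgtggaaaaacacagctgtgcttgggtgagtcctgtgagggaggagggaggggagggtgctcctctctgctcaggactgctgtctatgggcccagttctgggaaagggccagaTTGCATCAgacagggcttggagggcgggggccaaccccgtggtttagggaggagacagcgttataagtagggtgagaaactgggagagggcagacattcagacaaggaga
Steap4 (chr5:7960222-7960471, plus strand) and Saa3 (chr7:46715677-46715926, minus strand) are acute-phase genes. The element shown is TTGCNNAA, a loose form of the C/EBP site that fixes 1 half-site and only the last 2 bases of the other.
Steap4: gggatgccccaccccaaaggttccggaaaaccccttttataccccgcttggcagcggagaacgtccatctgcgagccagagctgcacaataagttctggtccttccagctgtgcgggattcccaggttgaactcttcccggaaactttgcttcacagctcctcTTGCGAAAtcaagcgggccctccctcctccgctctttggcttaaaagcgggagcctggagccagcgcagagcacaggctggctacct
Saa3: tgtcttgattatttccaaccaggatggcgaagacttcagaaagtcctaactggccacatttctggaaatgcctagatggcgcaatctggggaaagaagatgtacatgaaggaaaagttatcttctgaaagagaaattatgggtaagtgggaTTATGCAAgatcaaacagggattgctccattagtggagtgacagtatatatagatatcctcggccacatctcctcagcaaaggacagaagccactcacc
A match is a string of letters and not a measured binding site, and matches to different elements may overlap. Among genes tested that have a promoter in the table (9432), 2.71% held the interferon element, 1.93% held TGATGNAA and 7.1% held TTGCNNAA in this window, and over all 27025 promoters of the table the shares were 3.04%, 3.53% and 9.55%.

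Loss of Cop1 under IFNγ was accompanied by many small changes and by few large ones, most of which were decreases. Of 11904 genes tested, 4828 (40.6%) were called at an adjusted p under 0.05, of which 2362 rose (19.8%) and 2466 fell (20.7%). Of these, 4144 (85.8%) changed by less than 1.5-fold, and 282 (2.37%) changed at least 2-fold, 75 of them up (0.63%) and 207 down (1.74%). The 4 Cop1-guide libraries lay above both Rosa26 libraries for 23.9% of the genes and below both for 24.7%. The median log2 change of all genes tested was -0.0045, a value near 0 that the scaling between libraries largely sets. When the 2 libraries of every population were added together, 1443 genes were called.

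**Figure D1:**
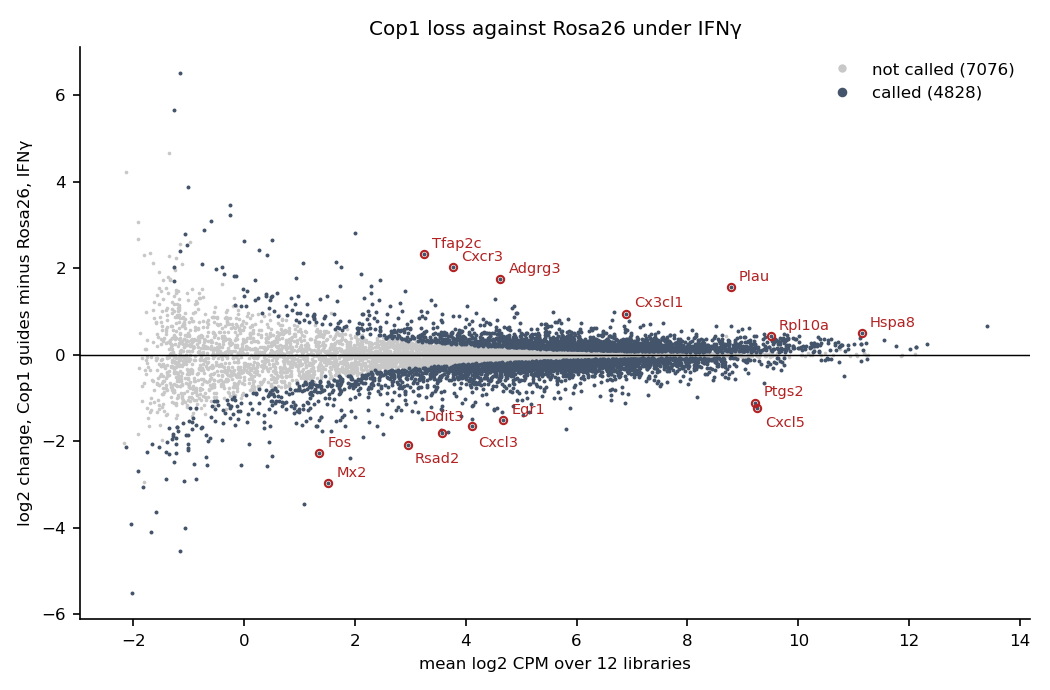
Log2 change of Cop1 loss against Rosa26 under IFNγ (vertical axis) against mean log2 CPM over the 12 libraries (horizontal axis) for the 11904 genes tested. Dark points are the 4828 called genes and light points the rest; the circled and labelled genes are named in the text.

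Taking genes above a mean log2 CPM of 3 whose sign was shared by both guides, the 15 largest increases included transcription factors, cytokine and chemokine receptors, an integrin and semaphorins. Tfap2c, which encodes the transcription factor AP-2γ of mammary and placental development, stood at 2.73 and 2.59 CPM in the Rosa26 libraries, 15.8 and 18.3 with sgRNA1 and 11 and 10 with sgRNA2, a log2 change of 2.33 ± 0.14 (adjusted p = 4.32e-17). Cxcr3, the receptor for Cxcl9 and Cxcl10, stood at 3.75 and 5.06 CPM in Rosa26, 21.1 and 21.1 with sgRNA1 and 14.6 and 15.8 with sgRNA2, a change of 2.02 ± 0.13 (adjusted p = 7.85e-17). For both genes every Cop1-guide library lay well above the Rosa26 libraries, and the sgRNA1 libraries were the highest. Plau, the urokinase-type plasminogen activator, rose from 194 and 204 CPM to 656 and 658 with sgRNA1 and 513 and 524 with sgRNA2 (log2 change 1.55 ± 0.03). The adhesion receptor gene Adgrg3 rose by 1.75 ± 0.10, the transcriptional coactivator Eya2 by 1.30 ± 0.10 and Il12rb1, a receptor chain shared by interleukins 12 and 23, by 1.27 ± 0.12. Integrin β3 (Itgb3, 1.15 ± 0.12), the semaphorins Sema6d (1.14 ± 0.11) and Sema4c (0.99 ± 0.058), Megf6 (1.11 ± 0.085), the autophagy gene Atg9b (1.09 ± 0.084), the guanine exchange factor Ngef (1.00 ± 0.14), the sphingosine 1-phosphate transporter Spns2 (0.99 ± 0.046), the water channel Aqp1 (0.99 ± 0.14) and the collagen chain Col6a1 (0.97 ± 0.10) made up the rest of the 15. Ngef stood at 4.91 and 5.14 CPM in the Rosa26 libraries, at 13.6 and 15.4 with sgRNA1 and at 7.01 and 6.93 with sgRNA2, so that its increase came mostly from sgRNA1. In the fit of summed libraries the calls of Tfap2c, Cxcr3 and Ngef ended (adjusted p = 0.0605, 0.0549 and 0.36).

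The 15 largest decreases by the same rule included stress, interferon, chemokine and growth factor genes. Ddit3, which encodes the stress factor CHOP, stood at 25.2 and 25.8 CPM in the Rosa26 libraries against 7.19 and 6.79 with sgRNA1 and 7.37 and 7.72 with sgRNA2, a log2 change of -1.81 ± 0.11 (adjusted p = 6.5e-18). Atf3, a stress-induced partner of AP-1 factors, stood at 169 and 155 CPM in Rosa26, 45.9 and 48.5 with sgRNA1 and 54.2 and 50.1 with sgRNA2 (-1.71 ± 0.049, adjusted p = 1.97e-28). Both genes were lower in each Cop1-guide library, and neither was called between the guides (adjusted p = 0.741 for Ddit3 and 0.176 for Atf3). Adh7, an alcohol and retinol dehydrogenase, changed by -1.73 ± 0.11, Vegfc, a lymphangiogenic growth factor, changed by -1.49 ± 0.085 and Nrp1, a coreceptor of semaphorins and of VEGF, by -1.27 ± 0.12. Acod1, which makes itaconate, changed by -1.31 ± 0.068, the protease inhibitor Serpina3g by -1.33 ± 0.058, the growth arrest gene Gadd45a by -1.30 ± 0.12 and the membrane adaptor ankyrin 2 (Ank2) by -1.41 ± 0.10. The remaining 6 of the 15, Ifit1, Cmpk2, Cxcl3, Egr1, Steap4 and Chac1, are described with their groups.

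**Figure D2:**
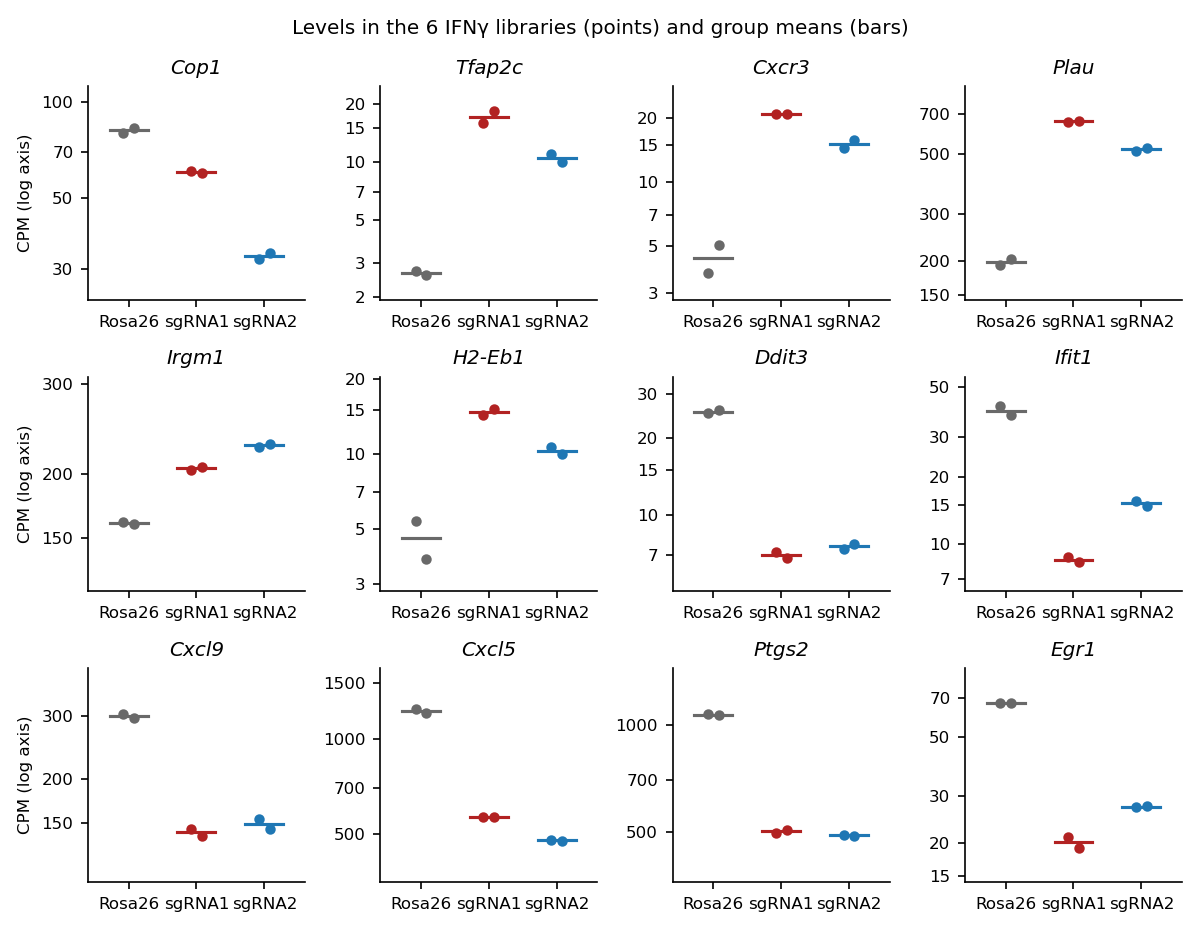
CPM of 12 genes in each of the 6 IFNγ libraries, on log axes, with 1 panel per gene and the 3 groups (Rosa26, sgRNA1, sgRNA2) along the horizontal axis; each point is a library and each bar the group mean of 2. In the panels of Tfap2c, Cxcr3, Plau, Irgm1 and H2-Eb1 all 4 Cop1-guide libraries lie above the Rosa26 libraries, and in those of Cop1, Ddit3, Ifit1, Cxcl9, Cxcl5, Ptgs2 and Egr1 all 4 lie below.

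Most core genes of IFNγ signalling changed by small amounts or were not called, while Irf7 and Usp18, which belong to the type I interferon response, fell. Of 19 receptor, JAK, STAT, IRF and feedback genes, 4 rose and 7 fell, against 19.8% and 20.7% of all genes tested, and the list's median log2 change was -0.054. Irf1, an early target of the pathway, lay within a narrow range, at 494 and 508 CPM in Rosa26, 452 and 464 with sgRNA1 and 485 and 486 with sgRNA2 (log2 change -0.088 ± 0.027, adjusted p = 0.00889), and was not called when Rosa26 IFNγ replicate 2 was left out (adjusted p = 0.161) or with the 4 Cop1-guide libraries as 1 group (0.16). The receptor chain Ifngr2 changed by -0.33 ± 0.068 and Ptpn1, a phosphatase that acts on JAK2, rose by 0.34 ± 0.044. Irf7, which amplifies the type I response, stood at 54.2 and 54.7 CPM in the Rosa26 libraries, 22.2 and 22.5 with sgRNA1 and 35.2 and 39.9 with sgRNA2 (-0.91 ± 0.072). Usp18, which removes ISG15 from proteins and damps type I receptor signalling, stood at 22.1 and 21.6 CPM in Rosa26, 7.51 and 8.4 with sgRNA1 and 11.7 and 14.5 with sgRNA2 (-1.10 ± 0.11). Irf7 and Usp18 were lowest with sgRNA1, below the sgRNA2 libraries, which in turn lay below the Rosa26 libraries. Without Rosa26 IFNγ replicate 1, or without replicate 2, the number of list members that rose was 2 in place of 4, and the calls of Irf7, Ptpn1 and Irf1 ended in the fit of summed libraries (adjusted p = 0.218, 0.0727 and 0.502).

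Most type I interferon antiviral genes fell, and more with sgRNA1 than with sgRNA2. Of 31 tested, 26 fell and 1, Ifitm3, rose (log2 change 0.16 ± 0.03, chosen after its value was seen), against 20.7% and 19.8% of all genes, with a median of -0.54. The number that rose was 2 without Cop1 sgRNA1 IFNγ replicate 2 or Cop1 sgRNA2 IFNγ replicate 1. Ifit1, an RNA-binding inhibitor of viral translation, stood at 41.2 and 37.5 CPM in the Rosa26 libraries, 8.77 and 8.31 with sgRNA1 and 15.6 and 14.8 with sgRNA2 (log2 change -1.79 ± 0.093, adjusted p = 1.4e-19). Rsad2, which encodes viperin, stood at 29.1 and 26.3 CPM in Rosa26, 4.23 and 5.26 with sgRNA1 and 8.86 and 9.45 with sgRNA2 (-2.08 ± 0.12), and Cmpk2, its neighbour and a mitochondrial nucleotide kinase, at 28.5 and 25.5 CPM in Rosa26, 9.52 and 6.39 with sgRNA1 and 13.4 and 16 with sgRNA2 (-1.32 ± 0.12). In all 3 genes the Cop1-guide libraries were below both Rosa26 libraries, and the sgRNA1 libraries below the sgRNA2 libraries. Mx2, of the family of dynamin-like antiviral GTPases, had the largest change of the list, from 12.7 and 12.3 CPM to 1.03 and 1.65 with sgRNA1 and 1.85 and 2 with sgRNA2 (-2.96 ± 0.23), and Ifit3b changed by -2.39 ± 0.18. The gene annotation lists Mx2 as a polymorphic pseudogene, and whether these cells make its protein is not given. Bst2, which encodes tetherin, was not called (0.075 ± 0.033, adjusted p = 0.0648). Compared directly, the guides differed in 21 of the 31 genes, 20 of them higher with sgRNA2 and 1 lower, where 5.07% and 4.33% of all genes were called, and 13 were higher without Cop1 sgRNA1 IFNγ replicate 1. DESeq2 called 13 of the 21 and gave no adjusted p for 5. The 21 include Ifit1 (sgRNA2 minus sgRNA1 0.83 ± 0.13, adjusted p = 1.25e-05), Rsad2 (0.95 ± 0.17) and Cmpk2 (0.87 ± 0.16). For these 3 DESeq2 gave no adjusted p. sgRNA1 was thus the guide with the higher remaining Cop1 transcript and the lower antiviral transcripts. Ifit and Oas genes belong to families of similar sequence, and how reads that align to several genes were counted is not given. In the fit of summed libraries the calls of Rsad2 and Cmpk2 ended (adjusted p = 0.0928 and 0.0616). Of the 24 members with a promoter in the table, 10 (41.7%) held the interferon element in the 250 bases before the start. In vehicle the list's median log2 change was -0.538, close to the -0.541 under IFNγ. The difference between treatments was called positive for 2 of the 31 and negative for 1, where 3.38% and 2.36% of all genes were called.

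**Figure D3:**
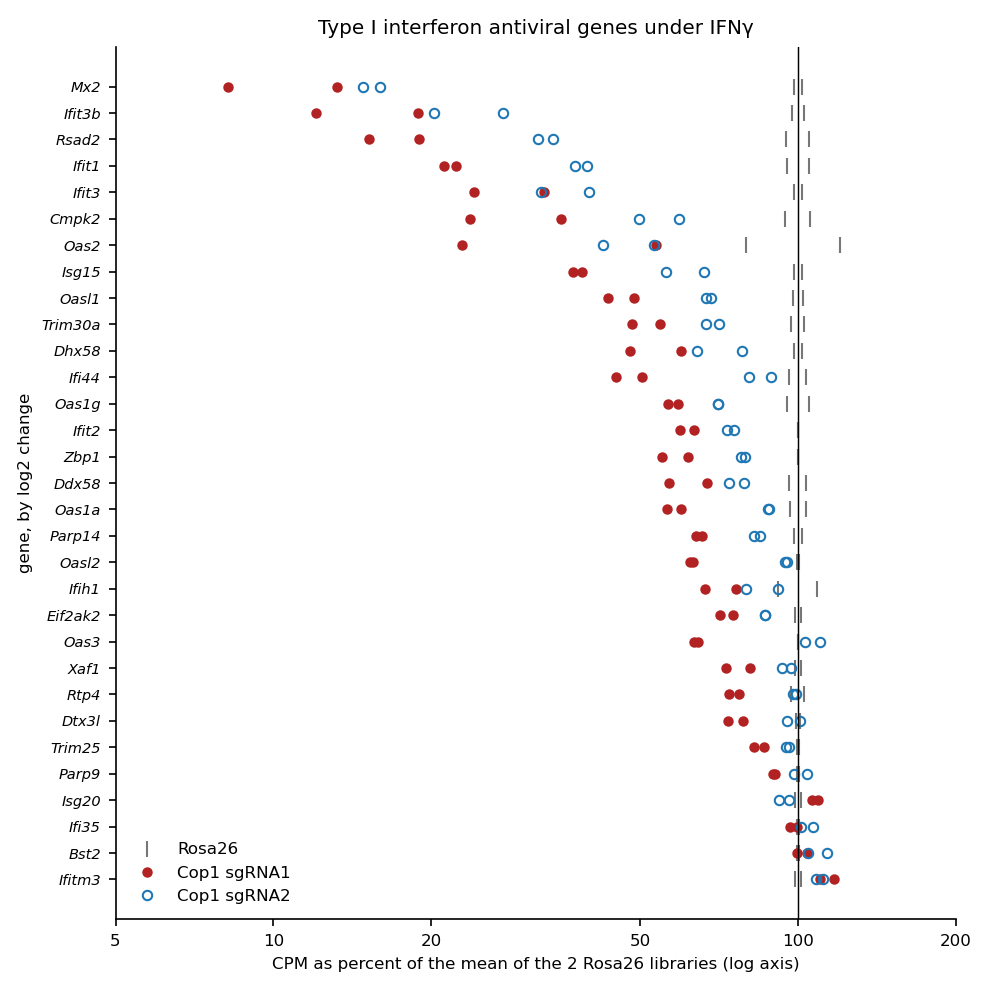
Level of each of the 31 tested type I interferon antiviral genes in the Cop1-guide libraries under IFNγ, as a percent of the mean of the 2 Rosa26 libraries (horizontal log axis), genes sorted by log2 change. Filled points are sgRNA1 libraries, open points sgRNA2 libraries and grey ticks the 2 Rosa26 libraries; for most genes the sgRNA1 points lie to the left of the sgRNA2 points.

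Guanylate-binding proteins and immunity-related GTPases, which act on the vacuoles of intracellular pathogens and are typical IFNγ targets, did not share that direction. Of 18 tested, 4 rose and 3 fell, near the shares of all genes, and the median was 0.0011. Gbp4 rose, with 760.1 and 742 CPM in the Rosa26 libraries against 1089 and 1096 with sgRNA1 and 1187 and 1200.1 with sgRNA2 (log2 change 0.60 ± 0.027, adjusted p = 1.02e-21). Irgm1 rose from 161 and 159.7 CPM to 204 and 207 with sgRNA1 and 226 and 229 with sgRNA2 (0.43 ± 0.042). In both genes the groups did not overlap and the sgRNA2 libraries were the highest. Gbp5 fell, with 44.2 and 48 CPM in the Rosa26 libraries against 27.9 and 27 with sgRNA1 and 33.1 and 28.8 with sgRNA2 (-0.66 ± 0.075). F830016B08Rik, an immunity-related GTPase gene that the files list under this name, changed by -0.87 ± 0.12. Gbp2 and Gbp3 were not called (-0.044 ± 0.043 and -0.016 ± 0.029, adjusted p = 0.451 and 0.71). Of the 10 members with a promoter in the table all held the interferon element, the letters also found in front of Ifit1 and Rsad2 above, and the 10 include genes that rose, genes that fell and genes that were not called. The gamma-activated sequence, searched as TTCNNNGAA, was held by 6 of the 10 (60%). It was held by 5 of the 24 antiviral promoters (20.8%) and by 5.94% of those of genes tested. For the AP-1 element TGANTCA the shares were 20%, 29.2% and 4.53%, in the same order. The call of Irgm1 ended in the fit of summed libraries (adjusted p = 0.155), and the counting of reads shared between Gbp or Irg family members is not given.

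Most class II antigen presentation genes rose, and so did 13 of 22 class I genes. Of 12 tested genes of MHC class II and its regulators, 9 rose and 0 fell, against 19.8% and 20.7% of all genes, with a median of 0.69 (edgeR; 3 members were not called and all 3, Rfx5, Rfxap and Rfxank, encode the RFX complex that sits on class II promoters). H2-Eb1, a class II β chain, stood at 5.38 and 3.78 CPM in the Rosa26 libraries, 14.4 and 15.1 with sgRNA1 and 10.6 and 9.98 with sgRNA2 (log2 change 1.43 ± 0.16, adjusted p = 3.39e-09). H2-DMb1, part of the peptide-exchange factor, stood at 5.8 and 4.84 CPM in Rosa26, 14.5 and 14.7 with sgRNA1 and 9.77 and 9.98 with sgRNA2 (1.17 ± 0.15). Ciita, the transactivator of the whole set, stood at 20.6 and 24 CPM in the Rosa26 libraries against 30.5 and 34.3 with sgRNA1 and 33.8 and 35.3 with sgRNA2 (0.58 ± 0.092, adjusted p = 1.71e-06). Every Cop1-guide library was above the Rosa26 libraries for these genes. H2-Ab1, a further β chain, stood at 11.5 and 12.5 CPM in Rosa26, 27.7 and 23.7 with sgRNA1 and 18.5 and 18.2 with sgRNA2, so that the sgRNA1 libraries were the highest, as for H2-Eb1 and H2-DMb1. The difference of sgRNA2 minus sgRNA1 in H2-Ab1 (-0.49 ± 0.12, adjusted p = 0.00656) was not called without Cop1 sgRNA1 IFNγ replicate 1 (adjusted p = 0.21), Cop1 sgRNA2 IFNγ replicate 1 (0.0712) or Cop1 sgRNA2 IFNγ replicate 2 (0.0592). H2-Aa (0.93 ± 0.15) and Cd74, the invariant chain (0.81 ± 0.051), rose as well. The summed level of the 12 genes was 1610 and 1620 CPM in Rosa26, 2000 and 2000 with sgRNA1 and 1630 and 1670 with sgRNA2. With sgRNA2 the sum thus lay only a little above the Rosa26 range.

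Of 22 tested genes of class I, peptide loading and the immunoproteasome, 13 rose and 3 fell, the first above and the second below the shares of all genes (19.8% and 20.7%), with a median of 0.15. H2-Q7, a non-classical heavy chain, stood at 57.8 and 56.9 CPM in the Rosa26 libraries, 86.5 and 87.8 with sgRNA1 and 68.1 and 73.9 with sgRNA2 (0.45 ± 0.054). The immunoproteasome subunit Psmb8 stood at 136 and 133 CPM in Rosa26, 173 and 167 with sgRNA1 and 160.3 and 168 with sgRNA2 (0.32 ± 0.042) and the proteasome activator Psme2 at 261 and 263 CPM in Rosa26, 341 and 337 with sgRNA1 and 307 and 313 with sgRNA2 (0.31 ± 0.028). The groups did not overlap in any of the 3, and the sgRNA1 libraries of H2-Q7 and Psme2 were the highest. Nlrc5, the class I transactivator, rose by 0.17 ± 0.04 (adjusted p = 0.000806), but was not called when Rosa26 IFNγ replicate 1 was left out (adjusted p = 0.0549), with sgRNA1 alone (0.0568) and in the fit of summed libraries (0.154). Tapbpl, a peptide editor, fell (-0.27 ± 0.05; adjusted p = 0.052 in the fit of summed libraries), and Tapbp, which encodes tapasin, was not called (-0.04 ± 0.026, adjusted p = 0.222). The cells are BALB/c and their H2 alleles differ from the reference genome, so H2 levels also depend on how well reads aligned.

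Most tested chemokines that attract T cells, neutrophils and monocytes fell, and the membrane-bound Cx3cl1 rose. Of 5 tested CXCR3 ligands and lymphocyte chemokines, 4 fell (20.7% of all genes) and 0 rose, and Ccl25 was not called (0.26 ± 0.19, adjusted p = 0.281). Cxcl9 stood at 304 and 297 CPM in the Rosa26 libraries against 145 and 138 with sgRNA1 and 154 and 144 with sgRNA2 (log2 change -1.05 ± 0.036, adjusted p = 7.73e-26). Cxcl10 stood at 149 and 153 CPM in Rosa26, 81.3 and 79.4 with sgRNA1 and 95 and 94.6 with sgRNA2, Cxcl16 at 267 and 276 CPM in Rosa26, 137 and 138 with sgRNA1 and 147 and 151 with sgRNA2, and Ccl5 at 30.5 and 31 CPM in Rosa26, 17.8 and 18.1 with sgRNA1 and 17.3 and 19.1 with sgRNA2. All 4 were separated between the groups, and Cxcl10 was higher with sgRNA2 than with sgRNA1 (0.24 ± 0.058, adjusted p = 0.005), a difference not called without Cop1 sgRNA1 IFNγ replicate 2 (adjusted p = 0.056) or Cop1 sgRNA2 IFNγ replicate 1 (0.0613). Cxcr3, the receptor of the first pair, rose in the same cells, as given above.

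Of 9 tested neutrophil attractants and colony-stimulating factors, 6 fell and 0 rose, where 20.7% and 19.8% of all genes did. Cxcl5, an abundant neutrophil chemokine of this line, stood at 1234 and 1199 CPM in the Rosa26 libraries, 564 and 566 with sgRNA1 and 479 and 476 with sgRNA2 (-1.23 ± 0.023, adjusted p = 2.2e-35). Cxcl3 stood at 43.9 and 46 CPM in Rosa26, 16.1 and 15.7 with sgRNA1 and 12.3 and 13.4 with sgRNA2 (-1.65 ± 0.078) and Cxcl1 at 791 and 744 CPM in Rosa26, 600.5 and 588 with sgRNA1 and 463 and 456 with sgRNA2 (-0.56 ± 0.027). In these 3 genes the sgRNA2 libraries were the lowest, the reverse of the order seen in the antiviral genes (sgRNA2 minus sgRNA1 for Cxcl1 -0.37 ± 0.032, adjusted p = 2.37e-11). The colony-stimulating factor Csf2 fell from 8.32 and 4.7 CPM to 2.49 and 1.83 with sgRNA1 and 1.76 and 2.21 with sgRNA2 (-1.65 ± 0.23). Of 10 monocyte and macrophage attractants, 7 fell and 2 rose, the latter near the share of all genes. Ccl20 (-1.82 ± 0.14), Ccl7 (-1.27 ± 0.23) and the growth factor Vegfa (-0.68 ± 0.06) fell, while Cx3cl1, a membrane-bound chemokine for CX3CR1-bearing cells, rose from 102 and 107 CPM to 215 and 219 with sgRNA1 and 191 and 187 with sgRNA2 (0.95 ± 0.042, adjusted p = 6.36e-22). The call of Cxcl1, and that of Ccl5, ended in the fit of summed libraries (adjusted p = 0.0834 and 0.0678).

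Most NF-kB genes were lower, and cytokine genes were in part. Of 29 interleukins, TNF family members and their receptors, 4 rose and 11 fell, against 19.8% and 20.7% of all genes, with a median of -0.14. Il1a, an alarmin that signals through the interleukin 1 receptor, stood at 218 and 219.5 CPM in the Rosa26 libraries, 131 and 127 with sgRNA1 and 139 and 127 with sgRNA2 (-0.74 ± 0.037). Il11 and Il33 changed by -1.29 ± 0.19 and -1.15 ± 0.23, and Tnfsf10, which encodes the death ligand TRAIL, rose from 12.9 and 9.67 CPM to 22.3 and 20.4 with sgRNA1 and 23.5 and 18 with sgRNA2 (0.90 ± 0.16). Without Rosa26 IFNγ replicate 1, 2 members of this list rose in place of 4, and the call of Il33 ended in the fit of summed libraries (adjusted p = 0.0836). Of 24 NF-kB components and targets, 20 fell and 0 rose, with a median of -0.35 and none changed by 2-fold. Icam1, an adhesion molecule, stood at 46.4 and 43.4 CPM against 24.7 and 25.6 with sgRNA1 and 27.3 and 29.3 with sgRNA2 (-0.75 ± 0.076), the inhibitor Nfkbie at 39.9 and 44.1 against 25.8 and 24.3 with sgRNA1 and 27 and 25.7 with sgRNA2 (-0.71 ± 0.067). The subunits Rel (-0.68 ± 0.085) and Relb (-0.55 ± 0.076) fell too. Birc2, an adaptor of TNF receptor signalling, was not called (-0.16 ± 0.073, adjusted p = 0.0812).

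C/EBP factors and the acute-phase and complement genes they are known to drive were lower in part. Of 15 tested, 10 fell and 0 rose, against 20.7% and 19.8% of all genes, with a median of -0.68. Saa3, an acute-phase serum amyloid, stood at 13.6 and 12 CPM in the Rosa26 libraries, 3.2 and 4.09 with sgRNA1 and 2.49 and 4.1 with sgRNA2 (-1.89 ± 0.16), and the metalloreductase Steap4 at 26.7 and 26.8 CPM in Rosa26, 11.5 and 10.2 with sgRNA1 and 8.82 and 8.09 with sgRNA2 (-1.48 ± 0.10). C1s1, a protease of the classical complement pathway, stood at 111 and 118 CPM in Rosa26, 67.4 and 66.1 with sgRNA1 and 62.6 and 61.8 with sgRNA2 (-0.83 ± 0.049). The groups did not overlap in any of the 3. Of the 10 members with a promoter in the table, 5 (50%) held TTGCNNAA, as shown above for Steap4 and Saa3. Lcn2, an iron-sequestering lipocalin on the same list, went in opposite directions with the guides. It stood at 226 and 225 CPM in the Rosa26 libraries, 283 and 281 with sgRNA1 and 191 and 194 with sgRNA2, so that the mean over guides was near the Rosa26 level (0.046 ± 0.034, adjusted p = 0.296) while sgRNA2 minus sgRNA1 was -0.55 ± 0.04 (adjusted p = 1.28e-13).

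Enzymes of nitric oxide, prostaglandin and itaconate synthesis fell in 8 of 10 tested genes, and 1 rose, against 20.7% and 19.8% of all genes. Ptgs2, which encodes cyclooxygenase-2, stood at 1072 and 1066 CPM in the Rosa26 libraries, 498 and 506 with sgRNA1 and 492 and 487 with sgRNA2 (-1.11 ± 0.022, adjusted p = 2.2e-34). The inducible nitric oxide synthase gene Nos2 stood at 572 and 587 CPM in Rosa26, 377 and 389 with sgRNA1 and 377 and 376 with sgRNA2 (-0.61 ± 0.027). The replicates of each group lay close together in both genes, and sgRNA2 minus sgRNA1 was not called (-0.037 ± 0.027, adjusted p = 0.46 for Ptgs2). Gch1, which makes the cofactor of nitric oxide synthases, changed by -1.25 ± 0.10 and Ass1, which recycles citrulline to arginine, by -0.93 ± 0.079. Among 17 genes of checkpoint ligands and immune evasion 3 rose, near the share of all genes, and 6 fell (3 without Rosa26 IFNγ replicate 1). Cd274, which encodes PD-L1, was not called, at 37.2 and 41.9 CPM in the Rosa26 libraries, 35.7 and 35.8 with sgRNA1 and 38.5 and 41.7 with sgRNA2 (-0.064 ± 0.075, adjusted p = 0.53). Vsir, which encodes VISTA, rose (1.24 ± 0.26), as did the poliovirus receptor relative Nectin2 (0.31 ± 0.052), and galectin 3 (Lgals3, -0.44 ± 0.025) fell. The myeloid-associated genes Cd14 (21.5 and 20.7 CPM in Rosa26, 16.1 and 14.2 with sgRNA1 and 12.3 and 13.1 with sgRNA2; -0.60 ± 0.087) and Cd68 (-0.60 ± 0.12) fell with these groups, 2 of the 4 tested leukocyte markers. The summed level of those 4 was 35.7 and 36.8 CPM in the Rosa26 libraries and 22.2 to 26.7 CPM in the Cop1-guide libraries, and Ptprc, the common leukocyte marker, had 1 count in 1 library and none in the others. The part of other cells in these results was not tested.

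**Figure D4:**
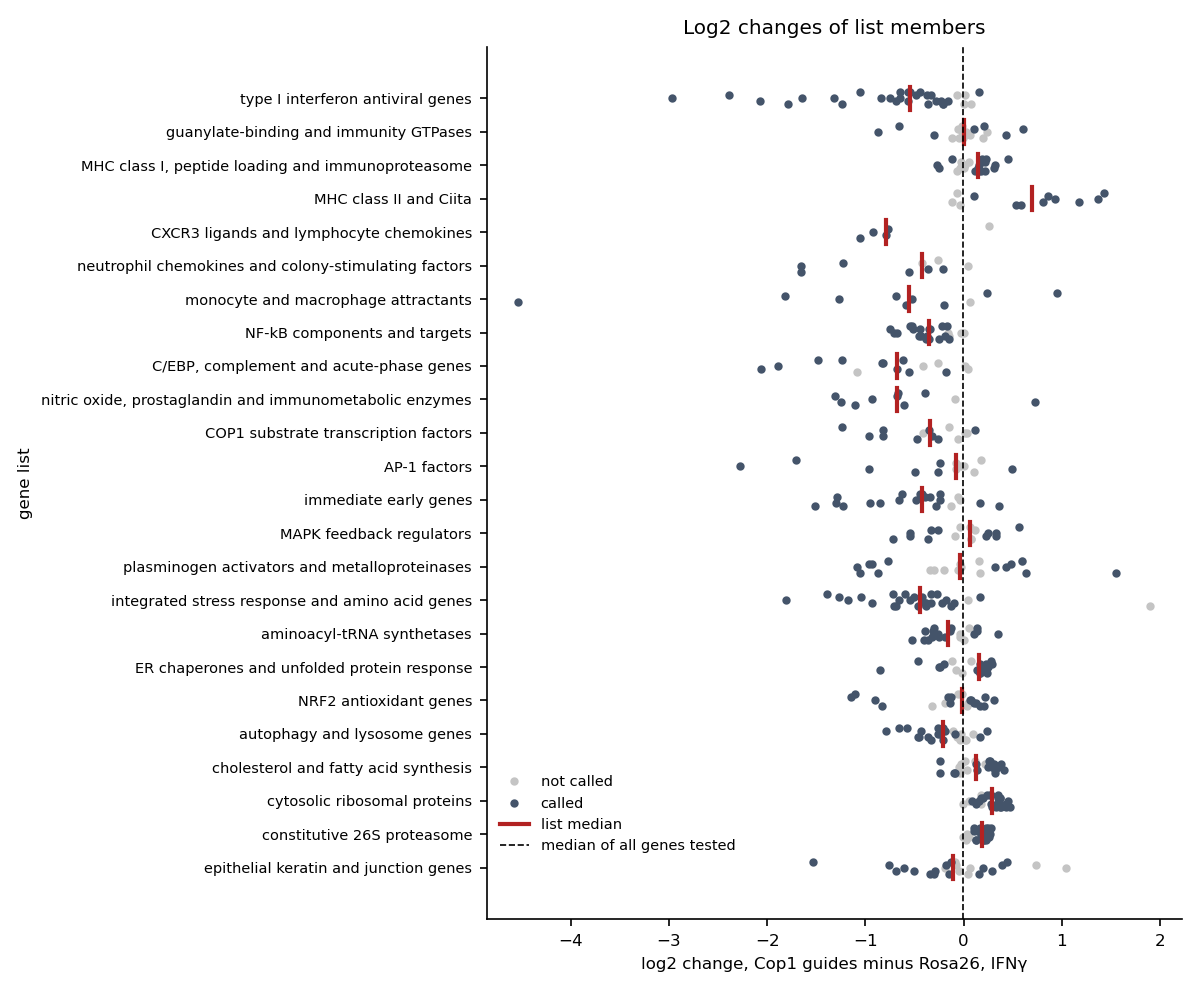
Log2 change of Cop1 loss under IFNγ for the tested members of 24 gene lists (horizontal axis), 1 row per list; dark points are called genes, light points genes not called, and the vertical bar is the list's median. The dashed line marks the median of all 11904 genes, -0.0045; the antiviral, NF-kB, acute-phase, immediate early and integrated stress lists lie mostly to its left and the MHC class II, ribosomal protein and proteasome lists to its right.

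Of 12 genes of the COP1 ligase machinery 5 rose and 3 fell, against 19.8% and 20.7% of all genes, and Cop1 itself is 1 of the 3. The adaptors diverged. Trib2 stood at 16.5 and 17.9 CPM in the Rosa26 libraries, 35.3 and 36.2 with sgRNA1 and 28.7 and 34 with sgRNA2 (0.96 ± 0.078), Trib1 at 90.5 and 96.6 CPM in Rosa26, 143 and 139 with sgRNA1 and 139.9 and 132 with sgRNA2 (0.56 ± 0.039), and Trib3 at 63.4 and 63.7 CPM in Rosa26, 29.6 and 27.5 with sgRNA1 and 33.3 and 32.8 with sgRNA2 (-1.05 ± 0.062). Trib1 and Trib2 were thus above the Rosa26 range and Trib3 below it in every Cop1-guide library. Trib3 is also a target of the integrated stress response. The scaffold Cul4a and the signalosome subunit Cops2 were not called (0.025 ± 0.029 and -0.07 ± 0.032, adjusted p = 0.524 and 0.08).

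Transcripts of transcription factors known as COP1 substrates were lower in 8 of 14 and higher in 1, against 20.7% and 19.8% of all genes, with a median of -0.34. Cebpd stood at 52.4 and 51.1 CPM in the Rosa26 libraries, 21.6 and 20.3 with sgRNA1 and 22.7 and 23 with sgRNA2 (-1.24 ± 0.071, adjusted p = 2.77e-18), and Cebpb at 166 and 172 CPM in Rosa26, 95.7 and 98.1 with sgRNA1 and 97.2 and 92.1 with sgRNA2 (-0.82 ± 0.047). Ets2 stood at 149 and 147 CPM in Rosa26, 83.8 and 77.9 with sgRNA1 and 85.2 and 88.1 with sgRNA2 (-0.82 ± 0.039) and Jun at 170.5 and 156 CPM in Rosa26, 132 and 137 with sgRNA1 and 138 and 139 with sgRNA2 (-0.26 ± 0.038). All 4 were lower in every Cop1-guide library than in either Rosa26 library. Among the PEA3 group of ETS factors, Etv5 was not called (-0.15 ± 0.061, adjusted p = 0.0517). Etv4, the 1 that rose, stood at 63.9 and 70.6 CPM in Rosa26, 76.6 and 74.6 with sgRNA1 and 68.7 and 71.2 with sgRNA2 and overlapped between the groups (0.11 ± 0.046, adjusted p = 0.0475). The call of Etv4 ended without Rosa26 IFNγ replicate 1 (adjusted p = 0.628), Cop1 sgRNA1 IFNγ replicate 1 (0.112) or 2 (0.0532), Cop1 sgRNA2 IFNγ replicate 2 (0.146), and by DESeq2 (0.108), and no member of the list then rose in the fits without 1 of these libraries. Ets1 and the corepressor component Mta1 were not called (-0.06 ± 0.027 and 0.033 ± 0.029, adjusted p = 0.0736 and 0.396).

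AP-1 and immediate early genes, which respond within minutes to growth factor and stress signals, were lower in part. Of 13 AP-1 and related factors, 6 fell and 1 rose, against 20.7% and 19.8% of all genes. Fos, from 7 and 7.65 CPM in the Rosa26 libraries to 1.38 and 1.91 with sgRNA1 and 1.45 and 1.31 with sgRNA2 (-2.28 ± 0.23), Junb, from 494 and 496 CPM to 246 and 245 with sgRNA1 and 264 and 259.9 with sgRNA2 (-0.97 ± 0.027), and Fosl2 (-0.50 ± 0.031) fell together with Atf3. Of 21 immediate early genes, 16 fell and 2 rose, with a median of -0.42, and none rose without Rosa26 IFNγ replicate 1. Egr1, a zinc finger factor induced by ERK signalling, stood at 66.9 and 67.1 CPM in the Rosa26 libraries, 21.1 and 19.1 with sgRNA1 and 27.1 and 27.5 with sgRNA2 (-1.51 ± 0.065, adjusted p = 2.69e-22). Btg2, an antiproliferative gene, changed by -1.29 ± 0.17 and Ccn2, a matricellular growth factor, by -1.22 ± 0.049. Zfp36l1, a decay factor for AU-rich transcripts, was not called (-0.13 ± 0.10, adjusted p = 0.314).

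Feedback regulators of MAP kinase signalling went in both directions, as genes overall did. Of 17, 5 rose and 6 fell, and 19.8% and 20.7% of all genes did. Dusp6, a phosphatase of cytoplasmic ERK, rose from 253 and 250.3 CPM to 370.2 and 386 with sgRNA1 and 369.5 and 367 with sgRNA2 (0.57 ± 0.028), whereas the nuclear phosphatases Dusp1 (33.2 and 36.5 CPM in Rosa26, 23.6 and 20.2 with sgRNA1 and 19.3 and 21.8 with sgRNA2; -0.72 ± 0.075) and Dusp4 (-0.55 ± 0.032) and the JNK phosphatase Dusp8 (-0.55 ± 0.076) fell. Of 13 EGF receptor family members and ligands, 3 rose, near that share, and 4 fell, and 2 fell without Rosa26 IFNγ replicate 1. The ligands Tgfa (61.3 and 66.9 CPM in Rosa26, 103 and 105 with sgRNA1 and 97.6 and 95.7 with sgRNA2; 0.64 ± 0.044) and Hbegf (194 and 184 CPM in Rosa26, 307 and 299 with sgRNA1 and 251 and 259.6 with sgRNA2; 0.56 ± 0.03) rose and the receptor Erbb3 fell (-0.51 ± 0.076). Ligands and Erbb3 were separated between the groups, in opposite directions.

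The integrated stress response, in which ATF4 raises amino acid supply genes when translation initiation is restrained, fell in most of its members. Of 28 genes, 25 fell and 1 rose, against 20.7% and 19.8% of all genes, with a median of -0.44. Chac1, which breaks down glutathione, stood at 70.6 and 75 CPM in the Rosa26 libraries, 24.4 and 25.1 with sgRNA1 and 29.7 and 32.8 with sgRNA2 (-1.39 ± 0.063, adjusted p = 1.78e-21). Ppp1r15a, the regulatory subunit that restores translation, stood at 44.8 and 44.5 CPM in Rosa26, 19.3 and 16.3 with sgRNA1 and 19.8 and 18.5 with sgRNA2 (-1.27 ± 0.073), and Nupr1, a stress-induced chromatin protein, at 46.5 and 42.7 CPM in Rosa26, 19.9 and 16.9 with sgRNA1 and 21.2 and 20.7 with sgRNA2 (-1.18 ± 0.07). With Ddit3, the 4 genes had no overlap between groups. Phgdh, the first enzyme of serine synthesis, was not called (0.049 ± 0.036, adjusted p = 0.316). Compared directly, the guides differed in 14 of the 28 genes, all 14 higher with sgRNA2, where 5.07% of all genes were called in that direction, and 9 were higher without Cop1 sgRNA1 IFNγ replicate 1. The string TGATGNAA occurred in 4 of 24 promoters of the list (16.7%) and in 3 of 12 of the aminoacyl-tRNA synthetases (25%). Of 20 synthetases, which charge tRNAs with amino acids, 12 fell and 4 rose, among the lower ones Aars (606 and 597 CPM in Rosa26, 384 and 386 with sgRNA1 and 457 and 449 with sgRNA2; -0.53 ± 0.024), Sars (-0.41 ± 0.026), Lars (-0.36 ± 0.036) and Wars (-0.39 ± 0.033). Kars was not called (0.05 ± 0.024, adjusted p = 0.0934).

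Other stress systems gave mixed counts, to be read against the 19.8% of all genes that rose and the 20.7% that fell. Of 20 endoplasmic reticulum chaperones and unfolded protein response genes, 11 rose and 5 fell, with a median of 0.15. Their summed level was 4600 and 4580 CPM in Rosa26, 5230 and 5260 with sgRNA1 and 4430 and 4510 with sgRNA2. It thus lay above the Rosa26 range with sgRNA1 and below it with sgRNA2. Herpud1, a degradation component that ATF4 also regulates, fell (75.9 and 79.8 CPM in Rosa26, 38.7 and 41.8 with sgRNA1 and 46.4 and 46.2 with sgRNA2; -0.85 ± 0.053) and so did the cochaperone Dnajb9 (-0.47 ± 0.081), whereas Creld2 (0.29 ± 0.056) and the translocon subunit Sec61b (0.28 ± 0.048) rose, 2 calls that ended in the fit of summed libraries (adjusted p = 0.0928 and 0.0777). Of the 20, 13 were lower with sgRNA2 than with sgRNA1, where 4.33% of all genes were, and 8 without Cop1 sgRNA1 IFNγ replicate 1. Of 14 heat-shock genes, 5 rose and 2 fell, led by the constitutive chaperones Hspa8 (1779 and 1798 CPM in Rosa26, 2393 and 2478 with sgRNA1 and 2664 and 2594 with sgRNA2; 0.50 ± 0.021) and Hsp90ab1 (0.26 ± 0.017). Hspa4l, an HSP110 relative, fell (-0.32 ± 0.041). Without Rosa26 IFNγ replicate 1 the number of heat-shock genes that fell was 1. Of 22 NRF2 antioxidant genes, 8 rose and 7 fell, with Hmox1, heme oxygenase 1 (68.1 and 68.8 CPM in Rosa26, 33.2 and 35.1 with sgRNA1 and 27.9 and 28.3 with sgRNA2; -1.15 ± 0.06), the cystine transporter Slc7a11 (-1.11 ± 0.092) and the quinone reductase Nqo1 (-0.90 ± 0.14) among those that fell. The number that rose was 3 without Rosa26 IFNγ replicate 1 and 5 without replicate 2. Of 24 autophagy and lysosome genes, 15 fell and 2 rose, with a median of -0.21. Sqstm1, the autophagy receptor p62, stood at 900.0 and 898 CPM against 539 and 529.7 with sgRNA1 and 591 and 622 with sgRNA2 (-0.66 ± 0.023), and the lysosomal hydrolases Gla (-0.79 ± 0.082) and Neu1 (-0.58 ± 0.065) fell. The number that rose was 0 without Rosa26 IFNγ replicate 1, and 1 without Cop1 sgRNA1 IFNγ replicate 2 or Cop1 sgRNA2 IFNγ replicate 2.

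Most ribosomal protein and proteasome genes rose by small amounts. Of 28 cytosolic ribosomal protein genes, 23 rose and 0 fell, against 19.8% and 20.7% of all genes, with a median of 0.28, and the share of all counts taken by ribosomal protein genes was 6.21% and 6.35% in the Rosa26 libraries and 7.01% to 7.54% in the Cop1-guide libraries. Rpl10a, from 573 and 591 CPM to 785 and 790.4 with sgRNA1 and 779 and 777 with sgRNA2 (0.43 ± 0.026), had one of the larger increases, and Rpl23 was not called (0.16 ± 0.053, adjusted p = 0.0516). Some alternatives called Rpl23 as higher, among them DESeq2 (adjusted p = 0.0179) and edgeR with a replicate block (0.00974). Of 26 subunits of the constitutive 26S proteasome, 22 rose and 0 fell, with a median of 0.18, for example Psma5 (233 and 220.2 CPM in Rosa26, 277 and 287 with sgRNA1 and 263 and 272 with sgRNA2; 0.28 ± 0.03), Psmb6 (0.27 ± 0.033), Psma7 (0.26 ± 0.03) and Psmb3 (0.25 ± 0.031). All 4 Cop1-guide libraries lay above both Rosa26 libraries in 26 of 28 ribosomal protein genes and in 22 of 26 proteasome genes, against 23.9% of all genes. Many ribosomal protein genes have processed pseudogenes of near-identical sequence, so their counts depend on how multiply aligned reads were treated. Of 28 nuclear-encoded respiratory chain genes, 8 rose and 2 fell (1 without Rosa26 IFNγ replicate 1, Cop1 sgRNA1 IFNγ replicate 2 or Cop1 sgRNA2 IFNγ replicate 1), and among 25 genes of MYC and ribosome biogenesis 9 rose and 5 fell, with the nucleolar genes Fbl (0.27 ± 0.033) and Npm1 (0.26 ± 0.021) among the higher ones.

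Counts of lipid, glycolytic, cell cycle and death genes are to be read against the 19.8% of all genes that rose and the 20.7% that fell. The G1/S counts, and the number of caspase and death genes that rose, lay near these shares. The cholesterol and mitosis lists held a larger share of increases, and the p53 list a larger share of decreases. Of 27 genes of cholesterol and fatty acid synthesis, 13 rose and 4 fell, with a median of 0.12. The fatty acid elongase Elovl6 stood at 152 and 139 CPM in the Rosa26 libraries, 187 and 191 with sgRNA1 and 199 and 193 with sgRNA2 (0.41 ± 0.035). The regulator Srebf2 was not called (-0.04 ± 0.027, adjusted p = 0.247). Of 27 hypoxia and glycolysis genes, 3 rose and 8 fell, among the lower ones the regulator Pfkfb3 (56.8 and 60.2 CPM in Rosa26, 35.4 and 36.8 with sgRNA1 and 34.1 and 39.4 with sgRNA2; -0.69 ± 0.062) and Ndrg1 (-0.56 ± 0.031). Of 24 genes of mitosis and the spindle, 9 rose and 2 fell, with Cdk1 the largest increase (0.24 ± 0.028), and Top2a was not called (-0.015 ± 0.021, adjusted p = 0.609). Of 28 G1/S and replication genes, 6 rose and 8 fell (5 fell without Rosa26 IFNγ replicate 1), with cyclin D1 (Ccnd1, 1102 and 1121 CPM in Rosa26, 1536 and 1533 with sgRNA1 and 1424 and 1427 with sgRNA2; 0.41 ± 0.021) up and cyclin D2 (Ccnd2, -0.42 ± 0.039) down. Of 18 p53 network and growth arrest genes, 10 fell, for example the polo-like kinases Plk2 (204 and 196 CPM in Rosa26, 86.8 and 86.8 with sgRNA1 and 94.9 and 99.9 with sgRNA2; -1.12 ± 0.036) and Plk3 (-1.01 ± 0.049), and 2 rose (1 with either of the Rosa26 IFNγ libraries left out). Of 23 caspase, death and inflammasome genes, 5 rose and 9 fell (3 and 5 without Rosa26 IFNγ replicate 2). There, the inflammatory caspase Casp4 fell (-1.04 ± 0.13).

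Surface, protease and signalling lists went in both directions, and some of their counts lay near the 19.8% of all genes that rose and the 20.7% that fell. Of 21 plasminogen activators, metalloproteinases and their inhibitors, 6 rose and 6 fell. Besides Plau, the collagenase Mmp13 stood at 39.2 and 39.5 CPM in the Rosa26 libraries, 20.3 and 21.2 with sgRNA1 and 16.8 and 16.3 with sgRNA2 (-1.09 ± 0.08) and the metalloproteinase Adamts1 at 184 and 191 CPM in Rosa26, 87.5 and 92 with sgRNA1 and 107 and 107 with sgRNA2 (-0.94 ± 0.037). Mmp13 and Adamts1 were lower in each Cop1-guide library than in either Rosa26 library, and Plau was higher in each. Among 14 integrins 5 rose and 4 fell, with Itgb3 up as given above and Itgb6, the epithelial partner that activates TGF-β, down from 10.8 and 9.85 CPM to 3.12 and 3.31 with sgRNA1 and 5.11 and 4.99 with sgRNA2 (-1.36 ± 0.14). Integrin β5 fell as well (Itgb5, -0.59 ± 0.04). Of 18 YAP and TAZ factors and targets, 5 rose and 7 fell, and of 24 TGF-β and BMP pathway genes 5 rose and 9 fell, with Id2 up (0.49 ± 0.08) and Smad7 down (-0.47 ± 0.052). Among 17 Notch pathway genes 5 rose and 4 fell, and among 20 Wnt pathway genes 3 rose and 6 fell, counts that leaned on single libraries. For Notch, 1 rose without Rosa26 IFNγ replicate 1, 3 without Rosa26 IFNγ replicate 2 or either Cop1 sgRNA2 IFNγ replicate and 2 without Cop1 sgRNA1 IFNγ replicate 2, and 1 fell without Rosa26 IFNγ replicate 2. For Wnt, 3 fell without Rosa26 IFNγ replicate 1.

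Of 11 AP-2 and mammary transcription factors, 7 fell and 2 rose (1 without Rosa26 IFNγ replicate 2), against 20.7% and 19.8% of all genes. Beside the increase of Tfap2c, the epithelial ETS factors Ehf (61.6 and 65.5 CPM in Rosa26, 31.2 and 30.6 with sgRNA1 and 39.9 and 39 with sgRNA2; -0.86 ± 0.056) and Elf3 (23.8 and 22.3 CPM in Rosa26, 16 and 16.1 with sgRNA1 and 14.5 and 14.1 with sgRNA2; -0.61 ± 0.086) fell. Of 24 epithelial keratin and junction genes, 5 rose and 11 fell. The simple keratins Krt8 (0.29 ± 0.023) and Krt18 (0.45 ± 0.023) and Epcam (0.39 ± 0.029), markers of the line that the naming rule did not pick, rose, while E-cadherin (Cdh1, 475 and 479 CPM in Rosa26, 367 and 371 with sgRNA1 and 411 and 408 with sgRNA2; -0.29 ± 0.025) and claudin 1 (Cldn1, -1.53 ± 0.20) fell. Of 18 matrix and mesenchymal genes, 8 fell and 2 rose (5 fell without Rosa26 IFNγ replicate 2), with fibronectin (Fn1, 1932 and 2014 CPM in Rosa26, 1397 and 1429 with sgRNA1 and 1399.6 and 1357 with sgRNA2; -0.50 ± 0.045), Tnc (-0.68 ± 0.092) and Col12a1 (-1.29 ± 0.15) down and vimentin not called (Vim, 0.044 ± 0.02, adjusted p = 0.0704). Of the 4 tested fibroblast and endothelial markers 0 were called by edgeR and 0 had an unadjusted p under 0.05, and the summed level of the 4 was 16.7 to 18.5 CPM over the 6 libraries.

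The guides gave different levels in a part of the genes. Compared directly under IFNγ, without the Rosa26 libraries, sgRNA2 and sgRNA1 differed in 1120 genes (9.41%), 604 higher with sgRNA2 (5.07%) and 516 lower (4.33%). Without 1 of the 4 Cop1-guide libraries the number was 422 to 732, and DESeq2 called 740, with no adjusted p for 90 of the 1120. Besides the antiviral and integrated stress response genes given above, 8 of 18 guanylate-binding and immunity GTPase genes were higher with sgRNA2. Of the hypoxia and glycolysis genes 16 of 27 and of the class II genes 6 of 12 were lower. Without Cop1 sgRNA1 IFNγ replicate 1 these numbers were 2, 8 and 2. In 12 genes (0.101%) each guide alone was called against the shared Rosa26 libraries, in opposite directions. Of these, the neuropeptide gene Cck stood at 5.12 and 6.59 CPM in the Rosa26 libraries, 8.3 and 8.35 with sgRNA1 and 2.8 and 3.1 with sgRNA2 (sgRNA2 minus sgRNA1 -1.50 ± 0.19, adjusted p = 3.65e-07), above the Rosa26 range with the first and below it with the second. The interleukin 23 subunit Il23a stood at 45 and 44.1 CPM in Rosa26, 52.5 and 52.6 with sgRNA1 and 36.8 and 39.7 with sgRNA2 (-0.46 ± 0.063) and the kinase Smg1, which acts in nonsense-mediated decay, at 131 and 144 CPM in Rosa26, 114 and 114 with sgRNA1 and 159 and 149 with sgRNA2 (0.44 ± 0.055, higher with sgRNA2). For these genes and Lcn2 the mean over guides does not describe either population.

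The effect of Cop1 loss under IFNγ was compared with that in vehicle by testing the difference of the log2 changes, which share no library. Of 11904 genes, 683 (5.74%) differed, 402 with the more positive effect under IFNγ (3.38%) and 281 with the more negative one (2.36%). In vehicle itself 4258 genes were called (35.8%), of which 2924 were called in the same direction under IFNγ and 59 in the opposite direction, and all 59 had a called difference. Of the 1845 genes called under IFNγ and not in vehicle, 242 had a called difference. For the other 1603 the effects were not shown to differ. The median log2 change of the antiviral list was -0.541 under IFNγ and -0.538 in vehicle. In the same order it was -0.443 and -0.412 for integrated stress response genes, 0.285 and 0.26 for ribosomal protein genes and 0.183 and 0.173 for proteasome genes. The count of 683 fell when any of the Rosa26 libraries was left out, which leaves a single control library for that treatment. It also fell without any of the Cop1-guide IFNγ libraries or without Cop1 sgRNA1 vehicle replicate 1. Without any of the remaining Cop1-guide vehicle libraries it did not fall. Whether a fall came from the library left out or from the smaller group was not tested. In the fit of summed libraries 0 genes were called for the difference by edgeR, with 563 of 12595 at an unadjusted p under 0.05, and DESeq2 on the separate libraries called 437, with no adjusted p for 72 of the 683.

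**Figure D5:**
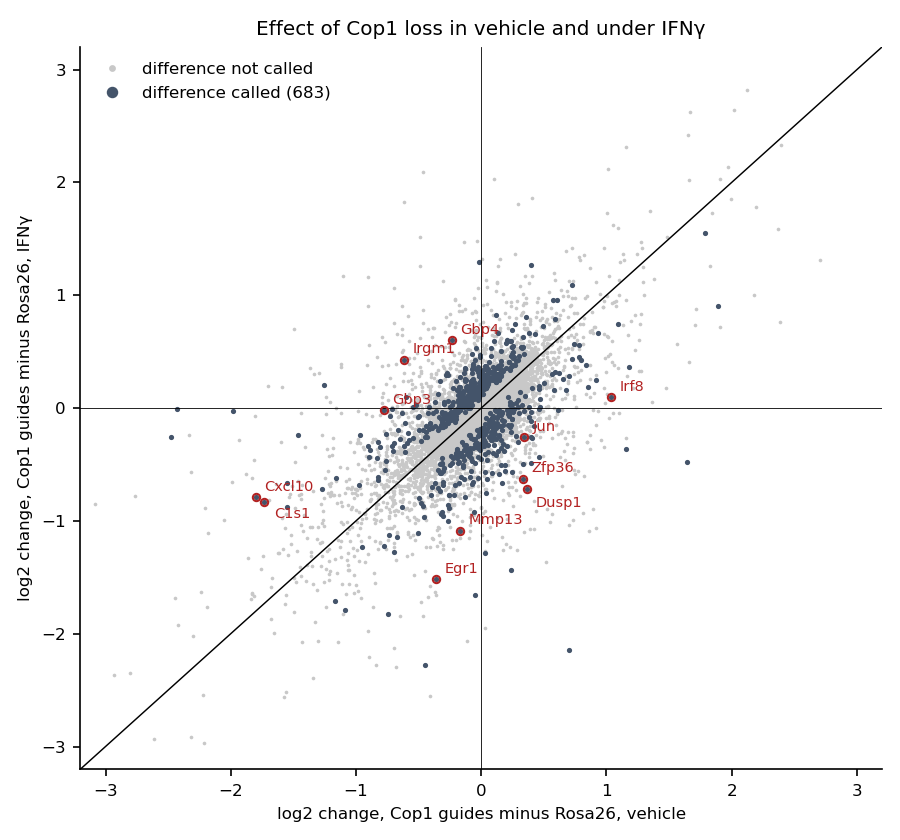
Log2 change of Cop1 loss under IFNγ (vertical axis) against that in vehicle (horizontal axis) for the genes tested, without 245 whose difference had an error of 1 or more and 2 beyond the axes; dark points are the 683 genes whose difference was called, and the diagonal marks equal effects. Egr1, Dusp1, Zfp36 and Mmp13 lie below the diagonal and Irgm1, Gbp3, Gbp4, Cxcl10 and C1s1 above it.

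The most negative differences included immediate early and growth arrest genes. Egr1 changed by -1.51 ± 0.065 under IFNγ and by -0.36 ± 0.085 in vehicle, a difference of -1.16 ± 0.11 (adjusted p = 2.3e-10). Dusp1, a phosphatase of p38 and JNK, stood at 17.3 and 17.7 CPM in the Rosa26 vehicle libraries, 23.2 and 22.1 with sgRNA1 and 23.3 and 21.8 with sgRNA2, and was thus higher with Cop1 loss in vehicle (0.37 ± 0.083) and lower under IFNγ (difference -1.08 ± 0.11, adjusted p = 2.67e-09). The RNA decay factor Zfp36 also had opposite signs, with 0.34 ± 0.091 in vehicle and -0.62 ± 0.066 under IFNγ (difference -0.96 ± 0.11), and so did Jun (0.34 ± 0.04 and -0.26 ± 0.038, difference -0.60 ± 0.056, adjusted p = 2.3e-10). Of 21 immediate early genes 12 had a called negative difference and of 24 NF-kB genes 11, against 2.36% of all genes, and 8 and 9 without Rosa26 vehicle replicate 2. Of 9 neutrophil attractants and colony-stimulating factors, 6 had a called negative difference by edgeR and 4 by DESeq2. The median log2 change of that list was -0.422 under IFNγ and 0.0958 in vehicle. Mmp13 (difference -0.92 ± 0.13), Gadd45g (-0.87 ± 0.17) and the tRNA methyltransferase Trmt12 (-0.79 ± 0.16) were lower with Cop1 loss under IFNγ and not called in vehicle. Irf8, a transcription factor of myeloid cells, rose by 1.04 ± 0.057 in vehicle, from 17.6 and 18.9 CPM to 39.3 and 40.5 with sgRNA1 and 33.5 and 36.6 with sgRNA2, and was close to the Rosa26 level under IFNγ, at 215 and 221 CPM in Rosa26, 245 and 236 with sgRNA1 and 222 and 230.5 with sgRNA2 (0.10 ± 0.034, adjusted p = 0.0189; difference -0.94 ± 0.067, adjusted p = 8.6e-14). Its call under IFNγ ended without Rosa26 IFNγ replicate 1 (adjusted p = 0.204), Cop1 sgRNA1 IFNγ replicate 1 (0.078) or Cop1 sgRNA2 IFNγ replicate 2 (0.104), and by DESeq2 (0.0565). The metalloprotease Adam33 rose in both treatments, by 1.89 ± 0.21 in vehicle and 0.90 ± 0.10 under IFNγ (difference -0.99 ± 0.25, adjusted p = 0.00921), and the difference was not called without Rosa26 vehicle replicate 1 (adjusted p = 0.0767) or 2 (0.0927) or Rosa26 IFNγ replicate 1 (0.0634).

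The most positive differences included immunity GTPase, chemokine and complement genes. Irgm1 stood at 11.3 and 10.4 CPM in the Rosa26 vehicle libraries, 5.43 and 6.44 with sgRNA1 and 7.02 and 9.98 with sgRNA2 (-0.62 ± 0.10), and rose with Cop1 loss under IFNγ (difference 1.05 ± 0.10, adjusted p = 1.57e-09). Gbp3 fell in vehicle (-0.78 ± 0.095) and was not called under IFNγ (difference 0.76 ± 0.10, adjusted p = 5.53e-07). Of the 18 guanylate-binding and immunity GTPase genes, 10 had a called positive difference and 0 a negative one, against 3.38% and 2.36% of all genes, and 6 without Rosa26 vehicle replicate 1. Cxcl10 stood at 6.32 and 6.94 CPM in the Rosa26 vehicle libraries, 1.87 and 1.22 with sgRNA1 and 1.78 and 2.65 with sgRNA2, a deeper relative decrease (-1.80 ± 0.14) than under IFNγ (difference 1.01 ± 0.15, adjusted p = 4.81e-06), and C1s1 likewise (-1.74 ± 0.11 in vehicle, difference 0.91 ± 0.12). Gbp4 (difference 0.84 ± 0.14, adjusted p = 5.58e-05) was not called in vehicle, and its difference was not called without Rosa26 vehicle replicate 2 (adjusted p = 0.294). For Il12rb1 the difference was 0.88 ± 0.22 (adjusted p = 0.0115) and was not called without Rosa26 vehicle replicate 1 (adjusted p = 0.0728) or 2 (0.0914) or Rosa26 IFNγ replicate 1 (0.051). Tgtp1 and Iigp1, further immunity-related GTPases with a called difference, had 19 counts each over both Rosa26 vehicle libraries, 4 and 6 with sgRNA1 and 3 and 11 with sgRNA2, so no fold in vehicle is given. Iigp1 rose under IFNγ (0.20 ± 0.031; adjusted p = 0.21 in the fit of summed libraries).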

How the data were processed

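RNA from 4T1 cells of 3 guide populations under IFNγ or vehicle was sequenced, with 2 libraries per population and treatment. The deposited table holds whole-number counts of reads per gene with no normalization, and the authors' steps named by the submitters' processing notes are STAR 2.4.0, HTSeq, DESeq2 1.10 and the mm10 genome. The role of each, the annotation, the strand setting and the treatment of multiply aligned reads are not stated in them. The labels' protocols name a TruSeq RNA kit and 1 ug of total RNA. The row of library totals was left out, and 26 rows whose gene names had turned into dates stayed in the fit and are not named.

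All 12 libraries entered 1 model of group means in edgeR 4.0.16 (R 4.3.3) with TMM scaling, robust quasi-likelihood dispersion and filterByExpr (minimum count 10, minimum total 15), which kept 11904 genes. Standard errors are the absolute log2 change over the square root of F. CPM use the scaled library sizes. Calls are made at an adjusted p under 0.05 (Benjamini-Hochberg). The common dispersion was 0.00103, a coefficient of variation of 3.21%, with 6 residual degrees of freedom, and the filter removed at most 0.0267% of the counts of a library. Within every group the replicates differed beyond sampling noise (chi-square per degree of freedom 2.33 to 4.21), so none was counted as a duplicate.

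The members and the gene lists were chosen with earlier results of these data known. Genes named are Cop1, the 15 largest called changes in each direction (mean log2 CPM from 3 upward, sign shared by both guides), up to 4 called members per list with the largest change (mean log2 CPM from 1 upward) and up to 2 not called, the 8 largest differences in each direction between treatments, up to 4 genes with opposite guides, and 20 genes of interest. Some genes that this rule names are not reported here. The direct guide comparison and the vehicle contrast were added after the counts were seen. The fit was tested on simulated counts. Alternatives were DESeq2 1.42.0, its size factors within edgeR, no filter, a replicate block, each library left out, summed libraries, single guides, IFNγ libraries alone and the Cop1-guide libraries as 1 group. Promoters come from RefSeq (GRCm38.p6) and gene positions from GENCODE vM21, matched by symbol.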

Additional observations from a re-analysis of the deposited data

Results flagged for a closer look

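The effect of Cop1 loss differed between IFNγ and vehicle in 683 genes by edgeR's test of the difference itself. Among the genes named, the effect was more negative under IFNγ for Egr1 (-1.16 ± 0.11), Dusp1 (-1.08 ± 0.11), Adam33 (-0.99 ± 0.25), Zfp36 (-0.96 ± 0.11), Irf8 (-0.94 ± 0.067), Mmp13 (-0.92 ± 0.13), Gadd45g (-0.87 ± 0.17), Trmt12 (-0.79 ± 0.16) and Jun (-0.60 ± 0.056), as the difference of log2 changes, IFNγ minus vehicle. It was more positive for Irgm1 (1.05 ± 0.10), Cxcl10 (1.01 ± 0.15), C1s1 (0.91 ± 0.12), Il12rb1 (0.88 ± 0.22), Gbp4 (0.84 ± 0.14) and Gbp3 (0.76 ± 0.10). Cop1 itself was not called for the difference (adjusted p = 0.209).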

How the results depend on the processing

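With the 2 libraries of each population summed, so that the residual spread came from the 2 guides, 1443 genes were called for Cop1 loss under IFNγ, 674 higher, 769 lower and 165 at least 2-fold (3477 of 12595 at an unadjusted p under 0.05), and 0 for the difference between treatments, 0 positive and 0 negative. Fewer degrees of freedom enter that fit by construction. Leaving out 1 library gave 3612 to 4450 genes for Cop1 loss and 348 to 733 for the difference (positive 184 to 421, negative 164 to 312). For the difference, sgRNA1 alone gave 416 genes (216 positive) and DESeq2 437 (261 positive, 176 negative; 1541 at an unadjusted p under 0.05). For sgRNA2 against sgRNA1, leaving out 1 library gave 422 to 732 genes (199 to 392 higher, 209 to 340 lower) and DESeq2 740 (401 higher, 339 lower). DESeq2 gave no adjusted p for 72 genes called for the difference and 90 called between the guides. The cause of these moves was not tested. Alternatives for the guide comparison and for vehicle, whose 4258 genes became 2917 to 4262 over its alternatives other than the replicate block, were chosen after seeing the data.

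Same-numbered libraries did not deviate together (correlations of -0.0534 to 0.0707 over 9111 genes), and the main fit did not pair them. Whether they shared a culture day or preparation is not given. These correlations cannot decide it, because the noise of each library enters them. With a replicate block 4861 genes were called for Cop1 loss, 693 for the difference, 1162 between the guides and 4292 in vehicle.

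Signs that reversed belonged to genes not called over both guides. Cck changed by 0.51 with sgRNA1 alone. With sgRNA2 alone the changes were -0.23 for Lcn2, -0.22 for Il23a, 0.17 for Smg1, 0.12 for Gbp3 and 0.018 for Cd274. With 1 library left out they lay between -0.15 and 0.025 for Cd274 (lowest without Rosa26 IFNγ replicate 1, highest without replicate 2), between -0.12 and 0.016 for Smg1 (the same libraries), between -0.035 and 0.0042 for Gbp3 and between -0.024 and 0.036 for Il23a, with -0.0061 for Il23a without Rosa26 IFNγ replicate 2.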
